A study of Sus scrofa with 2 samples.

Results

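The dividing keratinocytes of pig dorsal skin comprised 182 of the 9239 cell barcodes in the deposited matrices, 82 of 4379 in the fresh library and 100 of 4860 in the cryopreserved library. A barcode was taken as a member when at most 10% of its UMIs (unique molecular identifiers, which count each captured transcript once) lay on the 13 mitochondrial protein genes, the keratins KRT5, KRT1 and KRT10 together made at least 0.3% of its UMIs, the fibroblast collagens COL1A1, COL1A2 and COL3A1 made under 1%, and TOP2A, CDK1, UBE2C and CDC20 together had at least 5 UMIs. No maximum was set on genes or UMIs. Barcodes that met the mitochondrial, keratin and collagen criteria are called keratinocyte barcodes and numbered 725 (fresh library) and 1108 (cryopreserved library). Those with fewer than 5 UMIs of the 4 rule genes are called nondividing, 643 and 1008 in number. "Nondividing" names the criterion only, since a cell between divisions can still be cycling.

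The epidermis is renewed by division in its basal layer. Basal keratinocytes carry KRT5 and are held to the basement membrane by integrins. Daughter cells that move up stop dividing, lower KRT5 and switch on KRT1 and KRT10 in the spinous layer. Within the cycle, DNA is copied in S phase by the MCM helicase, which opens the strands, and by polymerases that ride on the PCNA clamp. CDK1 with its B-type cyclins then drives the cell into mitosis, TOP2A untangles the sister chromatids, and the anaphase-promoting complex with CDC20 and the ubiquitin conjugase UBE2C marks the B-type cyclins and the securin for destruction so that the chromatids separate.

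Healthy male farm pigs were the source of the skin, and both libraries were made with a droplet 3′ kit from about 8000 cells loaded each. Cells of the fresh library were used without freezing, and those of the cryopreserved library had been stored in liquid nitrogen in 90% fetal bovine serum with 10% DMSO. Per the labels, dead cells were sorted out by flow cytometry before loading, with magnetic sorting named as another way. Neither the labels nor the methods tell whether a single animal gave both libraries, and the extraction text of both samples describes freezing. With 1 library per condition, nothing can be said about variation between animals or runs, no test was made, and each interval below is an exact or score-based 95% interval that covers counting error only. The fresh matrix held 53271738 UMIs and the cryopreserved matrix 42217632. The libraries had 6 barcode sequences in common, and none of these was a dividing keratinocyte in both.

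Of the 6 markers behind the label, the rule used TOP2A, CDK1, UBE2C, CDC20 and KRT5, the first 4 as a sum and KRT5 within the keratin sum, so their presence was partly set by the choice of barcodes. DIAPH3 was the only marker that the rule did not use. This gene is a formin that builds actin filaments and acts in cytokinesis, and it had 1306 UMIs in fresh and 923 in cryopreserved members, or 537.7 and 543.9 CPM (UMIs scaled to library size with TMM factors). It was detected in 79 of 82 and 93 of 100 members, with 0 to 97 UMIs per fresh member (median 13) and 0 to 30 per cryopreserved member (median 8.5). Nondividing keratinocytes had 30.3 and 23.3 CPM of DIAPH3. KRT5, the type II keratin of basal cells, was found in every member, with 38 to 1997 UMIs in fresh (median 517) and 32 to 1166 in cryopreserved members (median 223).

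The values that chose the members were as follows and are given without a test. The summed UMIs of the 4 rule genes ran from 5 to 132 in fresh members, with a median of 22.5, and from 5 to 98 in cryopreserved members, with a median of 12. UBE2C (ENSSSCG00000007423) was detected in 70 fresh and 79 cryopreserved members, TOP2A (ENSSSCG00000017473) in 70 and 80, CDK1 (ENSSSCG00000010214) in 71 and 89, and CDC20 (ENSSSCG00000003949) in 74 and 89. Just inside the threshold, 12 fresh and 17 cryopreserved barcodes had 5 or 6 UMIs. Just outside it, 13 fresh and 20 cryopreserved barcodes had 3 or 4, and these stayed with the nondividing keratinocytes. At the upper end, 19 fresh and 5 cryopreserved members had 50 or more.

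**Figure D1:**
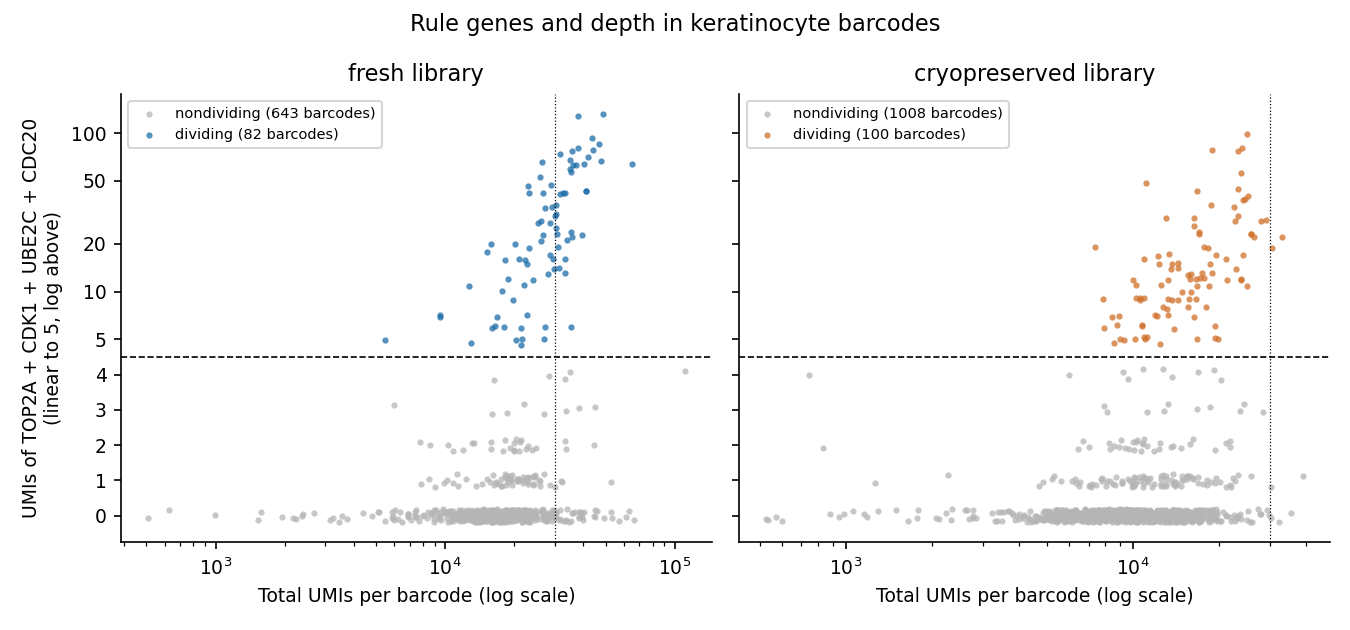
Summed UMIs of the 4 rule genes (y axis, linear to 5 and logarithmic above, jittered) against total UMIs per barcode (x axis, logarithmic) for every keratinocyte barcode, with the fresh library on the left and the cryopreserved library on the right. The dashed line marks the rule and the dotted line 30000 UMIs, which 36 of 82 fresh and 2 of 100 cryopreserved members exceeded.

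Promoters of the rule genes are shown with those of CCNB1, a B-type cyclin of mitosis, and PCNA, the replication clamp, to show the genes that chose the members beside a mitotic and a replication gene that did not. Each sequence covers 250 bases before to 50 bases after the RefSeq gene start in Sscrofa11.1, 5′ to 3′ on the gene's strand. They lie at chr12:22001050-22001349 (plus strand, TOP2A), chr14:64233695-64233994 (plus, CDK1), chr17:48018153-48018452 (plus, UBE2C), chr6:167890538-167890837 (minus, CDC20), chr16:47337989-47338288 (plus, CCNB1) and chr17:14142535-14142834 (minus, PCNA). MCM5, a subunit of the MCM helicase, is only named. Capitals mark TTTGAA, the core of the element known as CHR, and CCAAT, each on either strand (TTCAAA and ATTGG on the printed strand), while the E2F-type letters TTTCCCGC and TTTGGCGC were searched as well and do not occur here.
TOP2A: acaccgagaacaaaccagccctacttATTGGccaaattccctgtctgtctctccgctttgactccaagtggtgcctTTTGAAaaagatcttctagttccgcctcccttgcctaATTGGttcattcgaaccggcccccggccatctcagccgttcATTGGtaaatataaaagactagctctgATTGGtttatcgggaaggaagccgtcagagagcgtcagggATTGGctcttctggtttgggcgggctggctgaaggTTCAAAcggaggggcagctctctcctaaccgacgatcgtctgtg
CDK1: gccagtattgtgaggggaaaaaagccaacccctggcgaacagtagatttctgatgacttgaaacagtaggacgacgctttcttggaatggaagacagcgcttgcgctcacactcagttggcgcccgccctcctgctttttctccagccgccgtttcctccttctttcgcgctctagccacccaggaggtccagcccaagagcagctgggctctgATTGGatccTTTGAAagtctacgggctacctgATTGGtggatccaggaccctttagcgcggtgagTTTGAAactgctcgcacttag
UBE2C: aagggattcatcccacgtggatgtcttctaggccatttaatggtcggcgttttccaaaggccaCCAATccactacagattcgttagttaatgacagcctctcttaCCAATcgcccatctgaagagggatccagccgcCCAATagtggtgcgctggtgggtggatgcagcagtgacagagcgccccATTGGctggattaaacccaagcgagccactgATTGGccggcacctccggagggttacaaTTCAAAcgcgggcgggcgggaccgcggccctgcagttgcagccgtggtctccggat
CDC20: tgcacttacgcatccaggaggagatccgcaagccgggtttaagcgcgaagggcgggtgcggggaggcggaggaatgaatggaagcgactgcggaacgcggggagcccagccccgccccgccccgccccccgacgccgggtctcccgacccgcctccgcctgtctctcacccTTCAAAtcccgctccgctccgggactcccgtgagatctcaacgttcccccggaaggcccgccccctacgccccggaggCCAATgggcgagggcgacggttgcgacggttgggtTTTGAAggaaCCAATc
CCNB1: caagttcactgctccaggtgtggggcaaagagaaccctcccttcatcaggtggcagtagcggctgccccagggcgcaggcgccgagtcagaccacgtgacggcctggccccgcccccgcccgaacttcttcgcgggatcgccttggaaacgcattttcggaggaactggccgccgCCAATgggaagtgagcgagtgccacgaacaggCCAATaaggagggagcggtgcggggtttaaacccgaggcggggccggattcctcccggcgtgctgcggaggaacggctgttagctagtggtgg
PCNA: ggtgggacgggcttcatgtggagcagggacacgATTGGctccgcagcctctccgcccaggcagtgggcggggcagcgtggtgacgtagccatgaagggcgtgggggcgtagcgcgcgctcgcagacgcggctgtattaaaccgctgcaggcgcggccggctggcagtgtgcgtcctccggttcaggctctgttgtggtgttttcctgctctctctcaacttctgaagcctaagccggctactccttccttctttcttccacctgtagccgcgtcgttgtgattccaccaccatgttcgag
TTTGAA occurred in all 4 rule gene promoters, 2 times in TOP2A, CDK1 and CDC20 and 1 time in UBE2C, where it began 6 bases before the start on the other strand (position -6). CCAAT occurred 5 times in TOP2A, 2 times in CDK1, 5 times in UBE2C, 2 times in CDC20, 2 times in CCNB1 and 1 time in PCNA. Neither CCNB1 nor PCNA held TTTGAA in this window. Over all 19531 promoters of protein-coding genes on assembled chromosomes, TTTGAA was found in 14.0%, CCAAT in 35.4%, both in 5.53% and either E2F-type string in 2.36%. Among the 68 genes of the mitosis lists described below, 39.7% held TTTGAA, 70.6% held CCAAT, 32.4% held both and 8.82% held an E2F-type string. Among 44 promoters of the replication lists the shares were 11.4%, 54.5%, 9.09% and 22.7%. A match describes letters in a window and is not evidence of a bound factor.

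The share of all keratinocyte barcodes that were dividing differed between the libraries by less than the counting error when no maximum was set. It was 11.3% among fresh keratinocyte barcodes (82 of 725, Clopper-Pearson interval 9.10 to 13.8%). Cryopreserved keratinocyte barcodes gave 9.03% (100 of 1108, interval 7.40 to 10.9%). The difference, cryopreserved minus fresh, was -2.29 percentage points (Newcombe interval -5.24 to 0.505), which includes 0. When every barcode was thinned to 5000 UMIs and 2 rule UMIs were asked for, the shares were 11.2% and 9.90% and the difference -1.27 points (interval -4.31 to 1.62). This left out 18 fresh and 78 cryopreserved keratinocyte barcodes with fewer UMIs. At least 1 rule UMI after thinning was seen in 17% and 17.4%. Without any threshold per barcode, the rule genes summed over all keratinocyte barcodes stood at 199.7 CPM in fresh and 164.7 CPM in cryopreserved, a ratio of 0.825 (exact conditional interval 0.779 to 0.873, here on total UMIs).

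The maxima of the study's cell filter turned this order round. Limits of 4500 genes and 30000 UMIs kept 13 of 82 fresh and 65 of 100 cryopreserved dividing keratinocytes. The shares then were 2.65% (13 of 491, interval 1.42 to 4.49%) and 6.37% (65 of 1020, interval 4.95 to 8.05%), a difference of 3.72 points in the other direction (interval 1.46 to 5.72). The rule genes over all keratinocyte barcodes became 26.4 and 94.2 CPM, a ratio of 3.57 (interval 3.06 to 4.19). More than 4500 genes were detected in 84.1% of fresh members (69 of 82, interval 74.4 to 91.3%) and 35.0% of cryopreserved members (35 of 100, interval 25.7 to 45.2%). In nondividing keratinocytes the shares over that limit were 25.7% and 5.26%.

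**Figure D2:**
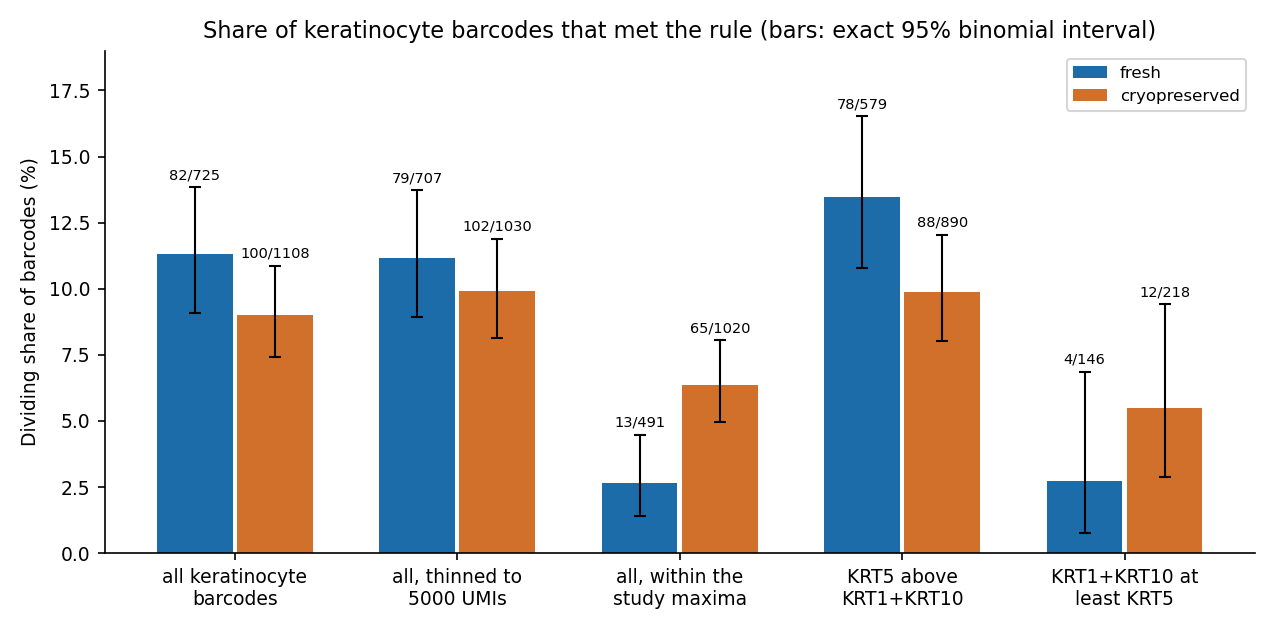
Share of keratinocyte barcodes that met the rule (y axis, %, from 0) in the fresh and cryopreserved libraries for all keratinocyte barcodes, for thinned barcodes, within the study maxima and by keratin state, with exact 95% binomial intervals and the counts above each bar. The fresh bar is the higher one in the first 2 pairs (11.3% against 9.03% for all barcodes) and the lower one within the maxima (2.65% against 6.37%).

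Members were deeper than the other keratinocytes in each library. Total UMIs per fresh member ran from 5483 to 65299 with a median of 28549.5, and per cryopreserved member from 7358 to 33112 with a median of 16114.5. Nondividing keratinocytes had medians of 17186 and 9911. The median number of genes was 5478.5 in fresh and 4177 in cryopreserved members, against 4087 and 3115.5 in nondividing keratinocytes. A minimum of 5 UMIs favours deep barcodes, so depth entered the choice of members, and its part in the difference was not tested. The mitochondrial share was 3.80% in the median of fresh and 4.85% of cryopreserved members, and 4.24% and 4.68% in nondividing keratinocytes. The doublet caller Scrublet marked 1 member in each library.

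Rule gene UMIs were not confined to keratinocytes. Among all barcodes within the mitochondrial limit, 187 fresh and 182 cryopreserved ones had 5 or more, of which 82 and 100 were the members, 42 and 25 had 1% or more of collagen UMIs, and 63 and 57 had little keratin and little collagen. As a background, mast-like barcodes, which carry at least 3 mast cell markers such as KIT, had 26.6 CPM of the rule genes in fresh (4 of 64 with a UMI) and 198.4 CPM in cryopreserved (6 of 85 with a UMI). Of the 62 cryopreserved UMIs, 49 lay in 1 barcode, and without it the level was 45.0 CPM. Endothelial-like barcodes had 68.1 and 67.5 CPM, with a UMI in 11.6% (32 of 275, median depth 7527 UMIs) and 10.4% (31 of 299, median depth 4714 UMIs). Of these, 12 fresh (4.36%) and 9 cryopreserved barcodes (3.01%) held 5 or more rule UMIs, so this group includes barcodes that meet the rule gene minimum. Keratinocyte barcodes, which were deeper, held at least 1 rule UMI in 25.4% (fresh) and 22.8% (cryopreserved) of cases.

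In members, genes of the mitosis lists were high, those of DNA replication less so, and those of epidermal differentiation low. The members were chosen by 4 genes of the same barcodes, which partly fixed this order. What follows describes them and tests nothing. Of 9924 genes with at least 50 UMIs in the keratinocytes of each library, 313 (3.15%) were at least 2-fold higher in dividing than in nondividing keratinocytes in both libraries and 161 (1.62%) at least 2-fold lower. The median log2 ratio over all tested genes was -0.06 in fresh and -0.07 in cryopreserved. On the mitosis lists (kinases, kinetochore, kinesins, spindle and cytokinesis, without the rule genes, the tubulins and STMN1), 59 of 62 genes measured at that level were 2-fold higher in both libraries, with a median log2 ratio of 3.96 in fresh and 3.76 in cryopreserved. On the replication lists 21 of 42 were, with medians of 1.03 and 1.35. No gene of either group was 2-fold lower in both. The minimum was set on dividing plus nondividing keratinocytes together, so a mitosis gene with few nondividing UMIs entered through the members, where it is high, and these counts and medians support nothing.

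**Figure D3:**
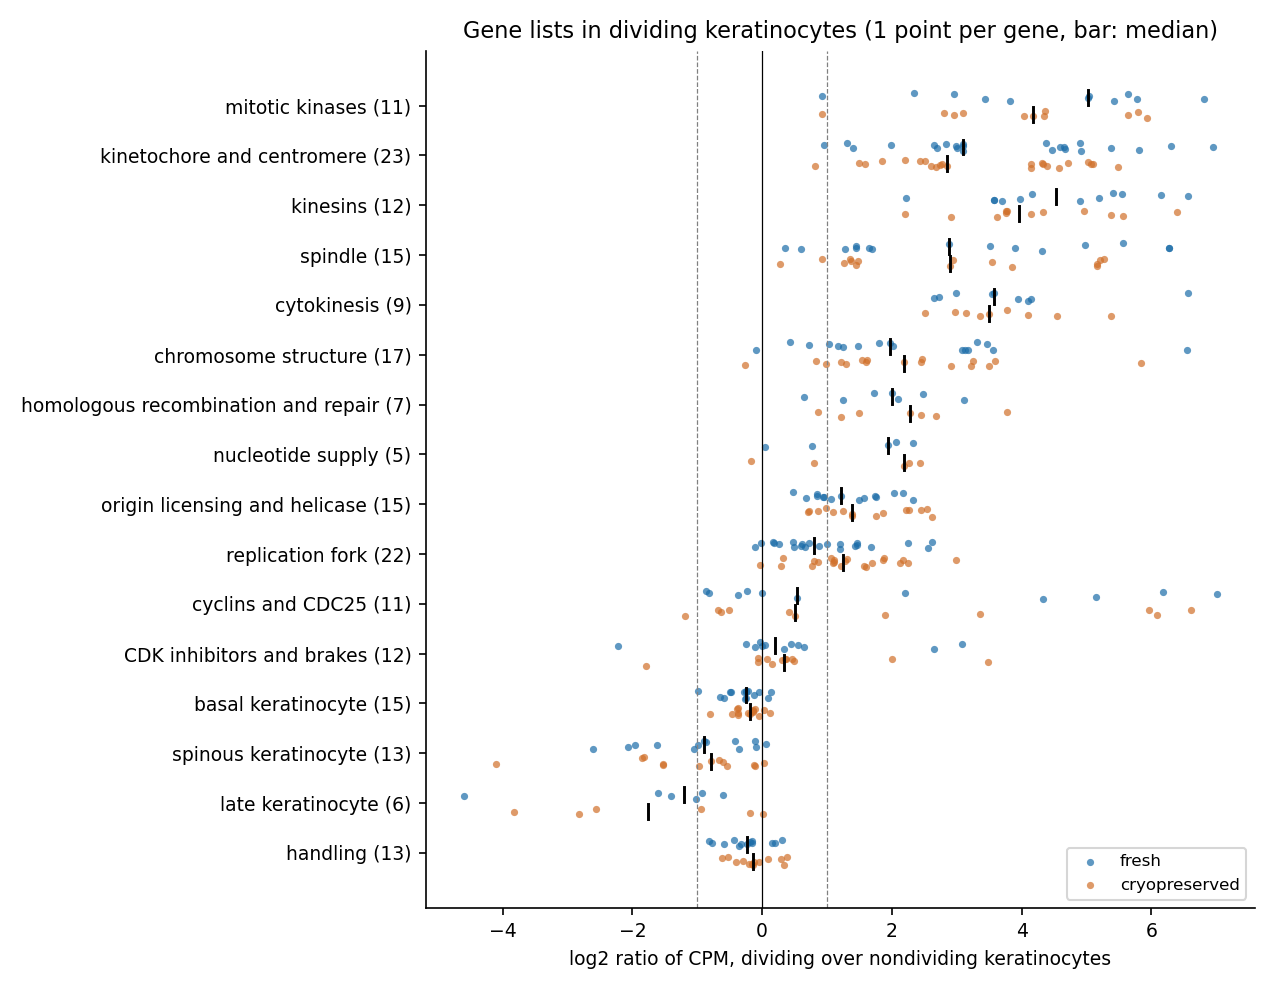
Log2 ratio of CPM, dividing over nondividing keratinocytes (x axis), for the genes of 16 lists (rows, with the number of genes measured), 1 point per gene and library and a bar at each median. Dashed lines mark 2-fold. Mitosis lists are the top rows and lie farthest right, with medians from 2.85 for kinetochore genes in cryopreserved to 5.02 for mitotic kinases in fresh among the 5 mitosis lists, and spinous and late keratinocyte genes lie to the left.

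Mitotic kinases were among the highest. Of 11 measured, 10 were 2-fold higher in both libraries. BUB1, the spindle checkpoint kinase, stood at 61.4 CPM in fresh and 63.0 CPM in cryopreserved members against 1.23 and 1.13 CPM in nondividing keratinocytes, log2 ratios of 5.64 and 5.80. PBK, a mitotic kinase, had ratios of 5.42 and 5.64. PLK1, which acts from centrosome maturation to cytokinesis, stood at 5.78 and 4.37, NEK2, a centrosome kinase, at 6.82 and 5.94, and AURKB, the kinase of the chromosomal passenger complex, at 3.44 and 3.09. PLK4, which starts centriole duplication, was the exception with 0.93 in each library.

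Kinetochore genes were 2-fold higher in both libraries for 22 of 23. CENPA, the histone variant of centromeres, had log2 ratios of 6.95 and 5.07, with 158 UMIs in fresh and 86 in cryopreserved members. NDC80, which binds microtubules at the kinetochore, had 5.81 and 5.02. BIRC5 and CDCA8, partners of AURKB in the passenger complex, had 4.66 and 4.31, and 6.31 and 5.49. DSN1, part of the kinetochore base, was the one below 2-fold, at 0.95 and 0.82.

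Motors and spindle proteins followed the same direction. Of the 13 listed kinesins, 12 were measured at this level and all 12 of these were 2-fold higher in both libraries, while KIFC2, a kinesin outside the list, was lower in both. The 12 included KIF18B, which trims microtubule ends, at 6.16 and 6.39, and KIF11, which pushes the spindle poles apart, at 5.41 and 4.33. Spindle genes were 2-fold higher for 13 of 15. TPX2, which nucleates spindle microtubules, had 209.6 CPM in fresh and 166.2 CPM in cryopreserved members against 2.72 and 4.63 CPM in nondividing keratinocytes. ASPM, a protein of the spindle poles, had log2 ratios of 6.28 and 5.27, DLGAP5 4.98 and 5.21, and GTSE1 5.57 and 5.17. The tubulin TUBA1B, used in every cell, was higher by only 1.27 and 1.35. NUMA1, which anchors the poles and has roles outside mitosis, and TUBG1, the nucleating tubulin, did not reach 2-fold. All 9 cytokinesis genes did, such as ANLN, which organises the contractile ring, at 3.54 and 3.50.

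Chromosome and repair genes were lower in the order but still high. Of 17 chromosome structure genes, 14 were 2-fold higher in both, including TOP2A, which the rule used. The condensins SMC2 (3.47 and 3.59) and NCAPG (3.31 and 3.25) were higher than the cohesin subunits SMC3 (0.42 and 0.98) and SMC1A (0.73 and 0.84) on this log2 scale. HMGB2, a chromatin protein of cycling cells, stood at 3.56 and 3.49. Of 7 homologous recombination genes 6 were 2-fold higher, such as the helicase BLM at 2.47 and 2.68.

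Replication genes were raised by less. Of 15 origin licensing and helicase genes, 9 were 2-fold higher in both libraries and all 15 were above a log2 ratio of 0 in both. ORC6, a subunit of the origin recognition complex, had 2.33 and 2.61, MCM10 2.03 and 2.22 (37.5% of its cryopreserved member UMIs in 1 barcode), and MCM5 0.95 and 1.39. PCNA had 172.5 CPM in fresh and 239.8 CPM in cryopreserved members against 62.8 and 66.2 CPM in nondividing keratinocytes, log2 ratios of 1.46 and 1.86. Of 22 replication fork genes 9 were 2-fold higher in both, led by UHRF1, which brings DNA methylation to new strands, at 2.61 and 3.0. RFC1, the large subunit of the clamp loader, differed between libraries in sign, with -0.11 and 0.80. For nucleotide supply, TYMS (2.32 and 2.19), TK1 (1.94 and 2.27) and DUT (2.07 and 2.44) were 2-fold higher, RRM1 was at 0.77 and 0.79, and DCTPP1, which clears damaged nucleotides, was at 0.04 and -0.17.

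Of 11 measured genes of the cyclin and CDC25 list, 5 were 2-fold higher in both libraries and 0 were 2-fold lower in both. By sign, 6 were higher in both, 4 lower in both and 1 opposite. A split by cycle phase was not tested. The mitotic cyclins were high: CCNB1 had 303 UMIs in 63 fresh members and 196 UMIs in 59 cryopreserved members, against 11 and 18 UMIs in all nondividing keratinocytes, log2 ratios of 7.02 and 6.08. CCNB2 had 4.33 and 3.35, and CCNB3 6.18 and 5.96. Outside the B-type cyclins, CCNF had 5.15 and 6.61. The D-type cyclins, which act in G1, were not: CCND1 had -0.38 and -0.51, CCND2 -0.82 and -1.18, and CCND3 -0.23 and -0.63. CCNE1, an S phase cyclin, had only 7 and 8 UMIs in members. Of the CDK inhibitors and brakes, CDKN3, a phosphatase that acts on CDKs (2.65 and 2.0), and CDKN2C, the p18 inhibitor of CDK4 and CDK6 (3.08 and 3.48), were 2-fold higher in both libraries. CDKN1A, the p21 inhibitor, was at -0.25 and -0.07, and CDKN2B had 4 and 3 UMIs in members against 88 and 65 in nondividing keratinocytes. Of 10 cell cycle transcription factors, 3 were 2-fold higher in both libraries and 0 were 2-fold lower in both, with medians of 0.68 and 0.66. By sign, 8 were higher in both, 1 lower in both and 1 opposite, beside 29.2% of all genes higher and 42.0% lower. Of the 2-fold higher factors, MYBL2, which drives late cycle genes, had 2.32 and 2.44. E2F8, a repressor of the E2F family, had 3.70 and 5.54.

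Differentiation genes were lower in members. Spinous genes were 2-fold lower in both libraries for 5 of 13 and higher for none, with median log2 ratios of -0.90 and -0.79. KRT10 stood at 2747.5 CPM in fresh and 2168.4 CPM in cryopreserved members against 11567.2 and 7666.0 CPM in nondividing keratinocytes, log2 ratios of -2.07 and -1.82. It ranged from 0 to 1121 UMIs per fresh member (median 9.5) and from 0 to 418 per cryopreserved member (median 4). KRT1 had -1.96 and -1.86, with 34.2% of its fresh member UMIs in 1 barcode. KRTDAP, a secreted protein of differentiating keratinocytes, had -1.62 and -1.54. Late genes were 2-fold lower in both libraries for 2 of 6. CASP14, the cornification caspase, had 1 UMI in the members of each library and 114 and 88 in nondividing keratinocytes. Of 15 basal genes, 12 were lower and 1 higher in both libraries, with medians of -0.26 and -0.19, and none was past 2-fold, against 3.15% of all genes higher and 1.62% lower. Over all 9924 genes, 42.0% were lower in both libraries and 29.2% higher. KRT5 itself differed by 0.13 and 0.12, COL17A1 by -0.50 and -0.47, ITGA6 by -0.24 and -0.21, and KRT15 by -0.99 and -0.81. Since the rule put a floor under the keratin sum, keratin levels were partly set by the choice of barcodes.

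Other genes found by size alone had similar ranks. The 12 highest by the weaker library held 3 rule genes (UBE2C with 8.82 and 7.30, TOP2A with 6.55 and 5.84, CDK1 with 4.94 and 5.05), 7 genes already named or listed (CCNB3, BUB1, PBK, ASPM, TPX2, GTSE1 and DLGAP5), IQGAP3, a scaffold protein (4.76 and 4.80), and the unnamed ENSSSCG00000039107 (4.86 and 5.35). Genes with over 20% of the UMIs of a group in 1 barcode were left out of that ranking, among them CCNB1, of whose 18 cryopreserved nondividing UMIs 1 barcode held 38.9%. At the low end, next to KRT10 and KRTDAP, stood GDPD2 (-2.34 and -1.85), TNFRSF18 (-1.61 and -1.69), LY6G6C, CASD1, SFMBT2, POF1B, DEF8, KIFC2, FBXL20 and ENSSSCG00000020872. By rank correlation with the summed rule genes over thinned keratinocyte barcodes, the 10 most alike genes were TPX2 (Spearman 0.60 over 707 fresh and 0.56 over 1030 cryopreserved barcodes), DIAPH3 (0.62 and 0.56), ENSSSCG00000026302, ENSSSCG00000017032, KIF20A, CCNB1, SPC24, CENPF, BIRC5 and STMN1 (0.55 and 0.44). These barcodes share a library and its free RNA, and the value is a description.

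Most dividing keratinocytes had more KRT5 than KRT1 and KRT10. KRT5 exceeded the sum of KRT1 and KRT10 in 95.1% of fresh members (78 of 82, interval 88.0 to 98.7%) and 88.0% of cryopreserved members (88 of 100, interval 80.0 to 93.6%), against 77.9% and 79.6% of nondividing keratinocytes. The rule used both the 3 keratins and the genes that define division, and the barcodes of a library are not replicates, so these shares are a description and their intervals cover counting error only. Put the other way, members made 13.5% of the 579 fresh barcodes with more KRT5 and 2.74% of the 146 with at least as much KRT1 and KRT10, a difference of 10.7 points (interval 5.91 to 14.2). In the cryopreserved library the shares were 9.89% of 890 and 5.50% of 218, a difference of 4.38 points (interval 0.119 to 7.54). Among the barcodes with more KRT5, the dividing share, cryopreserved minus fresh, differed by -3.58 points (interval -7.10 to -0.263), and after thinning to 5000 UMIs the difference was -2.63 points (interval -6.24 to 0.810). After the same thinning, the differences between the keratin sides were 10.5 points in fresh and 3.93 points in cryopreserved (interval of the latter -0.755 to 7.47). The KRT1 and KRT10 side rested on 4 fresh and 12 cryopreserved members, with median depths of 44021.5 and 20953.5 UMIs. The share of KRT1 and KRT10 in the 3 keratins was spread widely among members, with a median of 2.33% in fresh and 2.88% in cryopreserved and a maximum of 98.5% and 76.9%, and nondividing keratinocytes had medians of 2.01% and 3.25%. By the median, fresh members were thus slightly higher and cryopreserved members slightly lower than the others. In all, 5 fresh and 6 cryopreserved members fell between 40% and 60%.

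Replication and mitosis genes differed in balance from member to member. Thinned to 5000 UMIs, fresh members held 10 to 93 UMIs of the mitosis lists (median 27.5) and 1 to 39 of the replication lists (median 9). Cryopreserved members held 5 to 78 (median 25) and 1 to 36 (median 12). Nondividing keratinocytes had medians of 3 and 4 UMIs, in that order, in each library. Their ranges overlapped those of members, with up to 45 mitosis UMIs in fresh and 42 in cryopreserved, and up to 22 and 34 replication UMIs. All members had mitosis list UMIs, and none of the 182 was under 5000 UMIs. More replication than mitosis UMIs were held by 7 of 82 fresh members (8.54%, interval 3.50 to 16.8%) and 11 of 100 cryopreserved members (11%, interval 5.62 to 18.8%). The difference of 2.46 points had an interval from -6.88 to 11.2. Without thinning, 5 fresh (6.10%) and 14 cryopreserved members (14%) did, a difference of 7.90 points (interval -1.30 to 16.7). In 4 fresh and 14 cryopreserved members the sums lay within 2 UMIs of each other, so their side of the split is uncertain. Whether members form separate types was not tested. The rule holds no replication enzyme, and a cell in S phase with few UMIs of the 4 rule genes was not a member.

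**Figure D4:**
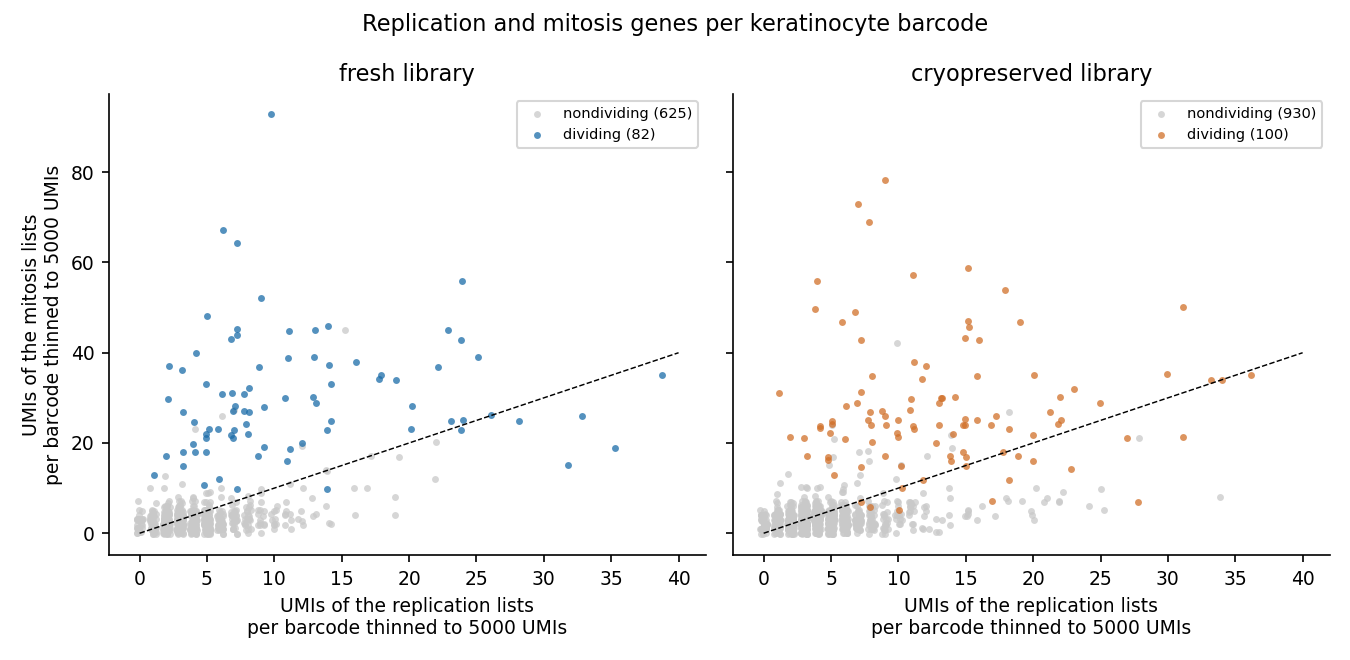
UMIs of the mitosis lists (y axis) against UMIs of the replication lists (x axis) in each keratinocyte barcode thinned to 5000 UMIs (points jittered), fresh on the left and cryopreserved on the right, with a dashed line of equal sums. Most members lie above the line, and 7 of 82 fresh and 11 of 100 cryopreserved members lie below it.

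Other genes were then read in replication-leaning and mitosis-leaning members, with members of equal sums placed among the mitosis-leaning. The split used the mitosis sum, so lower levels of mitosis genes in replication-leaning members were partly fixed by it. Of 25 cell cycle and keratin genes outside the rule and both sums, 10 were higher in mitosis-leaning members in both libraries, 6 lower in both, and 9 took opposite signs. Among the higher genes, intervals included 0 in fresh only for CCNB2, CCNF and CDC25B, and in cryopreserved only for CCND1. Among the lower, intervals included 0 in both libraries for LMNB1 and EXO1. They did so in fresh only for SMC3, and in cryopreserved only for BRCA1 and MYC. No share over all genes is given here, so these counts say nothing particular to these genes. UBE2C, a rule gene, stood at 111 CPM over 7 fresh and 60.6 CPM over 11 cryopreserved replication-leaning members, against 437 CPM in the remaining members of each library (scaled to total UMIs). The cyclin CCNB1 was low in replication-leaning members. It stood at 21.2 CPM (4 UMIs) over 7 fresh barcodes, against 139 CPM (299 UMIs) in the other fresh members. Over 11 cryopreserved barcodes it had 0 UMIs, against 132 CPM (196 UMIs) in the others. The exact interval of that count of 0 among 181616 UMIs reaches 20.3 CPM. UBE2S, which extends ubiquitin chains for the anaphase-promoting complex, was higher in mitosis-leaning members by 1.63 and 0.77 on the log2 scale, and CDKN1A by 1.27 and 0.80. Opposite signs in fresh and cryopreserved, with intervals on opposite sides of 0, were seen for KRT15, a keratin of resting basal cells (-1.35 and 0.89), and STMN1, which destabilises microtubules (-0.46 and 0.96). The same held for TUBA1B (-0.46 and 0.43), KRT5 (-0.15 and 0.21) and KRT1 (-0.59 and 0.30). HMGB2 had -0.20 and 0.78, with a fresh interval that included 0. These intervals cover counting error on pooled UMIs and not the spread between barcodes. The replication-leaning side held only 7 fresh and 11 cryopreserved barcodes.

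Dividing keratinocytes were then compared between the libraries. Of 3633 genes with at least 200 UMIs in members of both libraries together, 17 (0.468%) were at least 2-fold higher in cryopreserved and 19 (0.523%) at least 2-fold lower. These counts rest on the minimum, since one of 20 UMIs gave 319 higher and 366 lower, and the study maxima on genes and UMIs gave 63 higher and 14 lower. Over the same genes, nondividing keratinocytes had 14 (0.385%) and 6 (0.165%), from 11868940 and 10767885 UMIs against 2339226 and 1663623 in members. No gene of the rule, replication, mitosis, basal, spinous or handling lists that reached 200 UMIs was past 2-fold in members, which takes in 16 of 45 replication and 46 of 68 mitosis genes. With so few of all genes past 2-fold, this says nothing particular to these lists. On the other lists, 1 of 2 late genes (SPRP) and 1 of 4 EGFR ligands and receptors (AREG) were at least 2-fold higher in cryopreserved. The handling list of early response and heat shock genes had 12 genes at that minimum, 9 higher and 3 lower in cryopreserved members, with a median log2 ratio of 0.17. Of all 3633 genes, 48.5% were higher and 51.5% lower, and whether the list differs from them was not tested. FOS stood at 1368.6 and 1635.8 CPM, FOSB at 222.7 and 348.2 CPM, and JUN at 1257.0 and 999.4 CPM in fresh and cryopreserved members.

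The summed replication and mitosis lists lay on opposite sides of equal levels by small amounts. The replication lists summed to 2168.6 CPM in fresh and 2752.4 CPM in cryopreserved members, a ratio of 1.27 (interval 1.22 to 1.32), and 12 of 16 genes measured at this level were higher in cryopreserved. RFC1 had a log2 ratio of 0.80, RPA3, which coats single strands, 0.76, DNMT1, the maintenance methylase, 0.56, PCNA 0.48 and TK1 0.48. The other 4 genes were lower in cryopreserved, down to -0.44. The mitosis lists summed to 6012.2 and 5491.2 CPM, a ratio of 0.913 (interval 0.890 to 0.937), and 32 of 46 genes were lower in cryopreserved. Over all 3633 genes, 48.5% were higher and 51.5% lower, with a median log2 ratio of -0.01. HMMR, a spindle protein, had -0.71, CENPE, a kinetochore motor, -0.62, and NEK2 -0.54, while 14 mitosis genes were higher in cryopreserved, up to 0.63. Nondividing keratinocytes had ratios of 1.04 for replication and 1.05 for mitosis. With members chosen on barcodes thinned to 5000 UMIs the 2 ratios were 1.15 and 0.838. Within the study maxima they were 1.30 and 1.08, so the mitosis ratio changed direction.

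**Figure D5:**
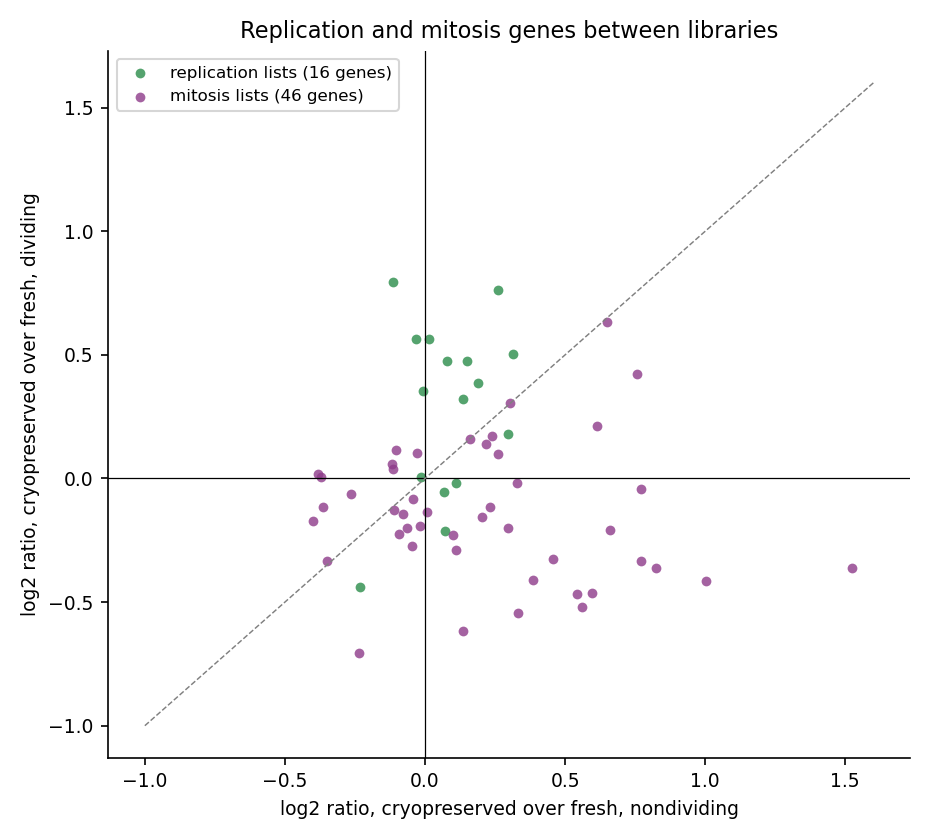
Log2 ratio of CPM, cryopreserved over fresh, in dividing (y axis) against nondividing keratinocytes (x axis) for the 16 replication and 46 mitosis genes with at least 200 UMIs in members, with a dashed line of equal values. On the y axis 12 of 16 replication genes lie above 0 and 32 of 46 mitosis genes below it, and none is beyond 1 or -1.

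The largest differences between the libraries were not cell cycle genes. ENSSSCG00000044834 had 761 UMIs in fresh and 1778 in cryopreserved members, a log2 ratio of 1.74, and 1.22 in nondividing keratinocytes. RPGRIP1L, a protein of the primary cilium base, had 1.46 and 1.39, and SLC3A1, an amino acid transporter subunit, 1.45 and 1.27. DGUOK, a mitochondrial deoxyguanosine kinase, had 1.48 in members and 0.18 in nondividing keratinocytes. PRR16, ENSSSCG00000047868, ENSSSCG00000024911, KRT2 and ENSSSCG00000043694 were also among the 10 highest, between 1.27 and 1.67. The minimum of 200 UMIs applied to both libraries together, so a gene that is low in one entered through the other, and a large difference was partly fixed by that filter. On the low side, PRMT2, an arginine methyltransferase, had 190 and 26 UMIs, a log2 ratio of -2.35 (interval -3.0 to -1.76), and -3.07 in nondividing keratinocytes. ND3, a mitochondrial subunit of complex I, had 3 to 58 UMIs per fresh member (median 16.5) and 0 to 11 per cryopreserved member (median 3), log2 ratios of -1.87 in members and -2.05 in nondividing keratinocytes. ENSSSCG00000044813 had -1.36 and -1.59, and ZBTB10, a zinc finger protein, -1.42 and -0.33.

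The other 6 of the 10 lowest leaned on single barcodes. S100A4, a calcium-binding protein common in mesenchymal and immune cells, had 193 UMIs in fresh and 29 in cryopreserved members, a log2 ratio of -2.22, yet 82.9% of the fresh UMIs lay in 1 barcode. Without the top barcode of each library its ratio was 0.17, so the direction rested on that barcode. Single fresh barcodes held 36.0% of MMP3, 33.7% of ADAMTS9, 31.4% of PTPRM, 28.2% of NAV2 and 27.7% of MAP2. Without the members that held other-lineage markers, described below, the log2 ratios were -0.47 for ADAMTS9, -0.29 for PTPRM, -0.82 for NAV2, -0.79 for MAP2, 0.56 for S100A4 and -1.90 for MMP3, of which only the last was past 2-fold. On the high side 1 cryopreserved barcode held 29.2% of the UMIs of AREG, a ligand of EGFR that had 313 and 493 UMIs and a log2 ratio of 1.17. A single barcode in each library also held 24.6% and 25% of SPRP, a cornification gene with a log2 ratio of 1.20.

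Markers of other cell types were read in the same barcodes. Over fibroblast, endothelial, mural, T or NK, myeloid, mast, melanocyte and Schwann markers without the 3 rule collagens, NOTCH3 and KIT, 17 of 82 fresh members (20.7%, interval 12.6 to 31.1%) and 7 of 100 cryopreserved members (7.0%, interval 2.86 to 13.9%) held 10 or more UMIs of other-lineage markers. Nondividing keratinocytes had 16.0% and 5.95%. These 42 genes summed to 992 UMIs in fresh and 411 in cryopreserved members, 424 and 247 CPM on total UMIs against 401 and 425 CPM in nondividing keratinocytes, with the fibroblast proteoglycan DCN as the most abundant gene (228 and 144 UMIs). Of them, 11 were at 0 in fresh and 20 in cryopreserved members, CD3D and CD2 of T cells, MS4A2 of mast cells and TYR of melanocytes in both. Endothelial markers had 161 UMIs in fresh members, 62.1% of them in 1 barcode, and 38 in cryopreserved members, with CDH5, CLDN5 and PROX1 at 0. Leaving out the members with 10 or more such UMIs gave ratios of 1.32 for replication and 0.898 for mitosis between the libraries, with 25 genes at least 2-fold higher and 16 at least 2-fold lower in cryopreserved. CD74, an antigen presentation gene that keratinocytes can also carry, had 3869 and 2819 UMIs in members while CD207 of Langerhans cells was at 0, and the globin HBB had 455 and 313. Their part in the results was not tested.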

How the data were processed

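Single-cell RNA from 1 fresh and 1 cryopreserved library was analysed. The authors deposited filtered matrices of UMI counts per gene and barcode, not normalised. The submitters' processing notes name Cell Ranger 4.0.0, STAR 2.5.1b and Sscrofa11.1. Of 31908 features, 15189 carried no symbol in the files, 772 of these were named through the reference gene table, and 14417 kept the Ensembl identifier. List genes without a feature of that symbol, such as MKI67, AURKA, CCNA2 and KRT14, were not analysed here.

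Barcodes were classed by the rule given above, and counts were summed per library and class. CPM used TMM factors (edgeR 4.0.16 in R 4.3.3). DESeq2 1.42.0 size factors and total UMIs were alternatives. A gene was called when its log2 ratio was at least 1 in size. Named genes were all members of the lists, the 12 highest and 12 lowest by the weaker library between dividing and nondividing keratinocytes (at least 50 UMIs per library, no barcode with over 20% of a group's UMIs), the 10 highest and 10 lowest between libraries (at least 200 UMIs in members), and the 10 most alike in pattern. Of these named genes, 1 is not reported here. A group with no UMIs was set at a floor of 3 UMIs. Intervals were exact Poisson, Clopper-Pearson, Newcombe or exact conditional, at 95%. Doublets were kept; Scrublet in scanpy 1.11.5 marked 1.48% of fresh and 1.45% of cryopreserved barcodes within the mitochondrial limit, and the 6% with the highest scores were left out as an alternative. Promoter windows were read from the Sscrofa11.1 genome with its RefSeq annotation. Python 3.11.15, numpy 2.4.6, scipy 1.17.1 and pandas 2.3.3 were used, and the scripts were tested on simulated data. Members and lists were chosen with earlier results of these data known.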

Additional observations from a re-analysis of the deposited data

Results flagged for a closer look

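In some genes the direction differed between the libraries or between the classes of keratinocyte. With 1 library per condition the difference was not tested, and the intervals cover counting error only.

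Dividing over nondividing keratinocytes took opposite signs in the libraries, with counting intervals on opposite sides of 0, for the following named genes. The log2 ratio was 0.58 in fresh and -0.66 in cryopreserved for ADAMTS9, a matrix protease, and 0.85 and -0.58 for PTPRM, a receptor phosphatase. NAV2, a cytoskeletal protein, had 1.12 and -0.43, and S100A4 0.48 and -1.71. The opposite order was seen for AREG, with -0.52 and 0.79. Without the top barcode of each gene in each group the fresh and cryopreserved values were 0.09 and -0.60 for ADAMTS9, 0.40 and -0.60 for PTPRM, 0.79 and -0.45 for NAV2, -1.80 and -1.50 for S100A4, and -0.74 and 0.39 for AREG. S100A4 then had the same sign in both libraries.

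Cryopreserved over fresh took opposite signs in dividing and nondividing keratinocytes for the following genes, whose intervals lay on opposite sides of 0 and whose ratio in dividing keratinocytes was at least 0.5 in size. The log2 ratios were -1.31 in dividing and 0.25 in nondividing for NAV2, -1.66 and 0.14 for MMP3, a matrix protease, 1.17 and -0.14 for AREG, and 1.20 and -0.22 for SPRP. Without the top barcodes SPRP had 1.19 and 0.14, which share a sign.

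Above the mitochondrial limit, 2 fresh barcodes and 0 cryopreserved barcodes met every other criterion of the rule. They entered no comparison.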

How the results depend on the processing

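Of the alternatives tried for the summary values, 108 stayed close to the reported value, 23 moved and 2 reversed a called direction, and for single genes the numbers were 582, 85 and 8. Within the study maxima of 4500 genes and 30000 UMIs, the rule gene ratio (0.825) reversed to 3.57 and the mitosis ratio between the libraries (0.913) to 1.08. The share difference, counted as moved since its interval included 0, also changed sign, from -2.29 to 3.72 points. The fresh keratin difference became 3.27 points, the ratio of median UMIs per member 0.826 (0.564 without maxima), the genes higher in dividing keratinocytes 127, and those higher in cryopreserved members 63. A mitochondrial limit of 5% gave 0.757 for the rule genes, 1.39 for replication and 0.964 for mitosis. A rule of at least 3 UMIs gave 101 genes lower in dividing keratinocytes, and 10 UMIs gave 31 lower in cryopreserved members and a mitosis ratio of 0.952. With the rule on thinned barcodes, the replication ratio was 1.15 and the mitosis ratio 0.838. A minimum of 20 UMIs per gene gave 255 genes lower in dividing keratinocytes, 319 higher and 366 lower in cryopreserved members. No minimum gave 3156 higher and 295 lower in dividing keratinocytes, and 2646 higher and 1894 lower in cryopreserved members. A count of 0 was set at the floor of 3 UMIs, which can exceed the count it is compared with. Without a minimum the floor can thus set or turn the direction, so those counts do not tell how many genes were higher or lower. Equal weight per barcode gave a replication ratio of 1.17, and leaving out the top barcode of each gene 306 genes lower in dividing keratinocytes. Leaving out members with other-lineage markers, an alternative chosen after seeing the data, gave 1.32 for replication. The cause was not tested, except that the gene minimum changes which genes enter.

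Among single genes, cryopreserved over fresh in dividing keratinocytes reversed within the study maxima for ADAMTS9 (0.090), PTPRM (2.67), MMP3 (1.45) and S100A4 (0.12). S100A4 was also at 0.046 without the highest doublet scores, 0.17 without the top barcode and 0.56 without members holding other-lineage markers, and MMP3 at 0.054 with a rule of 3 UMIs.

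With 1 library per condition, there was no replicate to leave out, and differences between animals, runs and storage cannot be told apart. The fresh library was deeper, with a median of 28549.5 UMIs per member against 16114.5, and the part of depth in the differences was not tested. Genes with few UMIs in nondividing keratinocytes have wide ratios. No paired analysis was possible because each condition had 1 library and the labels do not pair them.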

Other observations

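Other lists were described by the same counts, beside 3.15% of all genes 2-fold higher and 1.62% 2-fold lower in both libraries, so a count of 0 in a short list is no result about it. Of 7 EGFR ligands and receptors measured, none was 2-fold higher or lower in both libraries (medians -0.09 and -0.12), and EGFR itself stood at 376.7 CPM in fresh and 352.4 CPM in cryopreserved members. Of 7 NOTCH pathway genes none passed 2-fold in both libraries (medians -0.14 and -0.21). The same held for 5 follicle, gland or activated keratinocyte genes and for 13 handling genes (medians -0.23 and -0.15). Of 8 genes of the anaphase-promoting complex and checkpoint, 3 were 2-fold higher in both, among them UBE2S at 1.92 and 1.64. Of 4 nuclear envelope genes 2 were, with LMNB1, a lamin of the nuclear rim, at 1.99 and 2.19 and LMNA at 0.18 and 0.07.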
